A study of Arabidopsis with 12 samples.

Results

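The genes described here encode the coats, cargo receptors and translocation machinery of the secretory pathway in Arabidopsis thaliana. They were chosen by their deposited descriptions, which had to contain endomembrane protein 70 (EMP70), coatomer, emp24, Sec23/Sec24, Sec61 or signal recognition particle (SRP). Of 32833 genes in the deposited table, 61 matched these 6 terms. A level of at least 1 TPM (a share of each library's transcripts, normalised for gene length) in at least 3 of the 12 libraries was required, and 56 of the 61 passed, out of 19862 genes tested in all. The 56 were at 1 TPM or more in all 12 libraries, so the requirement did not favour any group. The lowest value among them was 1.41 TPM, for the Sec61 beta gene AT3G60540 in a Col-0 sorbitol library. The 5 left out never exceeded 0.46 TPM and comprised the emp24 family genes AT3G10780, AT2G03040, AT2G03290 and AT3G29070 and a coatomer-like locus, AT4G39060. The 56 genes fall into 12 for SRP and its receptors, 7 for Sec61, 9 for Sec23/Sec24, 8 for the emp24 or p24 family, 10 for coatomer and 10 for EMP70.

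Proteins bound for the cell wall, plasma membrane or vacuole enter the endoplasmic reticulum (ER) as they are made. SRP binds the emerging signal peptide, docks at its receptor on the ER membrane and hands the ribosome to the Sec61 channel. Cargo leaves the ER in vesicles coated by COPII, whose inner layer is built from Sec23 and Sec24, while coatomer forms the COPI coat that carries proteins back from the Golgi and between its cisternae. The p24 proteins are small membrane proteins that cycle between ER and Golgi and act as cargo receptors. EMP70 proteins span Golgi and endosomal membranes. Growing leaf cells use this route for wall polysaccharides and membrane proteins.

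Leaf portions of seedlings 10 days old were sampled after 6 h of shade (R/FR 0.17) in dilute liquid MS medium. Wild-type Col-0 and phyA-211, a mutant lacking the far-red photoreceptor phytochrome A, each received 30 mM sucrose or 30 mM sorbitol, a sugar alcohol matched in concentration. There were 4 groups of 3 libraries, all of them shaded, so no comparison measures shade itself. The labels do not state that replicates came from separate cultures, and p-values therefore measure a spread between samples that may be technical.

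The mutated gene, PHYA, matched its labels throughout: Col-0 held 356, 346 and 385 TPM under sorbitol and 343, 269.9 and 223 TPM under sucrose. The mutant held 32.5, 41.3 and 34.9 TPM under sorbitol and 44.9, 44.7 and 37.4 TPM under sucrose. All 6 leaf markers (Rubisco and antenna genes) were abundant, and their summed level was 44540.64 to 49060.41 TPM in the first 2 phyA-211 sucrose libraries but 24704.5 TPM in replicate 3, the lowest of the 12 libraries (the others reached 38413.6 to 54473.8). That library stood apart for the secretory genes as well, with 52 of 56 above their own 12-library mean, and counts of genes risen in phyA-211 are given with and without it. PYK10, an abundant ER body protein on the root marker list, stood at 646 to 1799 TPM over the 12 libraries. The other 7 root markers summed to 20.1 to 39.2 TPM in Col-0 with sorbitol and 7.19 to 43.4 TPM with sucrose. In phyA-211 they summed to 19.1 to 84.9 TPM with sorbitol and 6.95 to 22.7 TPM with sucrose. Of the 8 root markers, AT5G47450 and CASP2 were called lower with sucrose in phyA-211 (10.5% of all genes fell), and neither call held without sucrose replicate 3. The 4 shoot meristem markers summed to 14.7 to 22.9 TPM, with WUS below 1 TPM in every library. TPM carries no read counts, so depth is unknown. In bulk leaf RNA, a change in the number of cells of a type and a change in RNA per cell cannot be told apart.

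With sucrose, the coatomer and EMP70 families had the highest median log2 changes relative to sorbitol, in both genotypes. In Col-0, 8 of the 56 genes rose (14.3%, against 12.1% of all genes tested) and 1 fell (against 9.95%). Of the 8 that rose, 6 were EMP70 genes, 1 encoded coatomer epsilon and 1 a p24 protein. In phyA-211, 20 rose (35.7%, against 16.9% of all genes) and none fell (against 10.5%). At an unadjusted p under 0.05 in either direction were 18 of the 56 in Col-0 and 28 in phyA-211. Of all 19862 genes, 7020 and 8067 were, which is also the background for the family counts at that cutoff below. Of the 20, 9 were coatomer genes, 9 EMP70 genes, 1 a p24 gene and 1 an SRP gene. The 8 that rose in Col-0 were among the 20 in phyA-211, so 14.3% of the genes rose in both genotypes, against 9.61% of all genes. The tests used limma on log2(TPM + 1), with adjustment over all genes and a threshold of 0.05.

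The median log2 change of the 56 genes was 0.22 in Col-0 and 0.35 in phyA-211, where all genes had medians of 0.08 and 0.11. In each genotype 49 of the 56 were on the positive side, as were 11465 of all 19862 genes in Col-0 and 11793 in phyA-211. Rescaling each library by its median ratio lowered the all-gene median by 0.09 in Col-0 and 0.13 in phyA-211, and 41 of the 56 then stayed positive in each. Relative to the all-gene median, the 56 genes stood 0.14 and 0.24 higher before rescaling and 0.13 and 0.22 higher after it. Rescaling divides all genes of a library by 1 factor, so this gap could hardly change and is no check on the difference. Without phyA-211 sucrose replicate 3, 6 genes rose in phyA-211 in place of 20 (9.64% of all genes), and the median was 0.26. The 6 were EMP1, AT4G12650, AT1G30630, AT3G15980, AT2G34840 and AT1G09580. The count was 4 without phyA-211 sorbitol replicate 1 (8.96% of all genes), 3 without sorbitol replicate 3 (6.73%) and 12 without sucrose replicate 2 (12.8%). It was also 3 when only the phyA-211 libraries were fitted (8.16% of all genes), with 2 coatomer genes and no EMP70 gene among them. In Col-0 it was 2 when any of the sorbitol libraries, or sucrose replicate 1 or 2, was left out (5.75% to 9.55% of all genes). It was 5 without phyA-211 sorbitol replicate 3 (10.4%) or sucrose replicate 2 (10.6%), which enter only the estimate of spread. Counts of 2 to 5 of the 56 genes do not exceed the all-gene shares beside them.

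**Figure D1:**
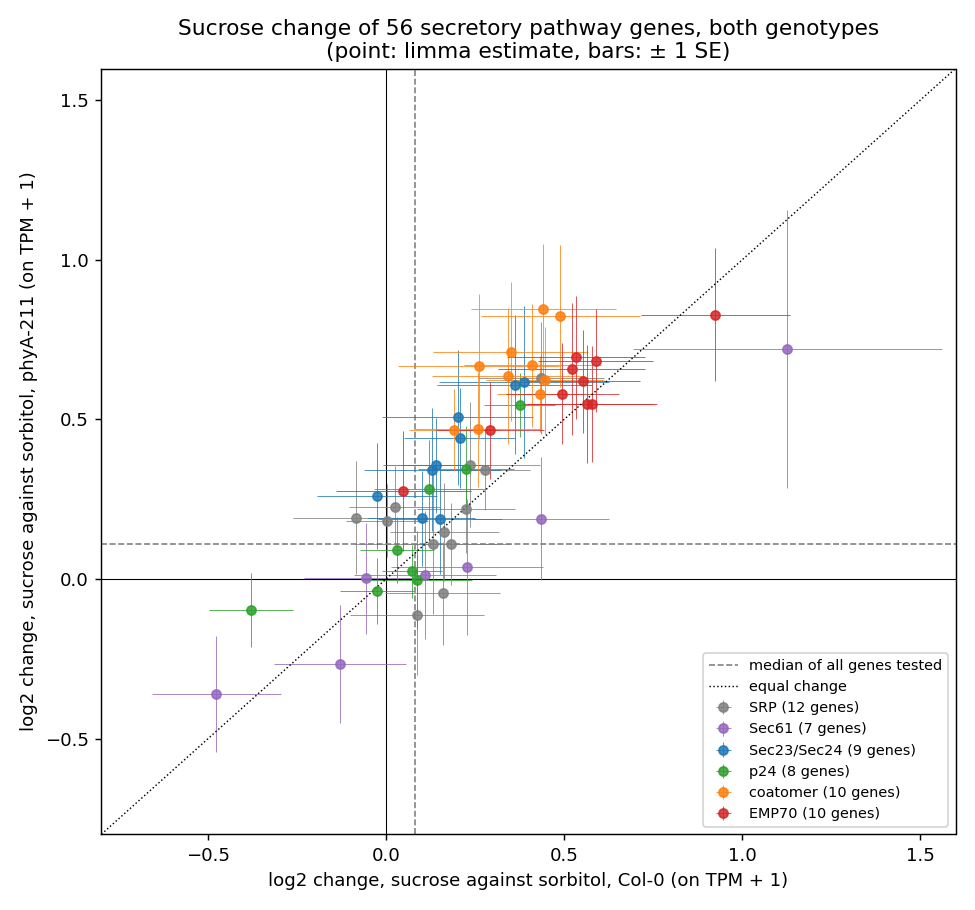
Log2 change with sucrose of each of the 56 genes in Col-0 (horizontal axis) and phyA-211 (vertical axis), on the log2(TPM + 1) scale, as limma estimates with bars of ± 1 SE, coloured by family. Coatomer and EMP70 genes lie on the positive side of both axes, while Sec61 genes spread from -0.48 to 1.13 in Col-0.

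**Figure D2:**
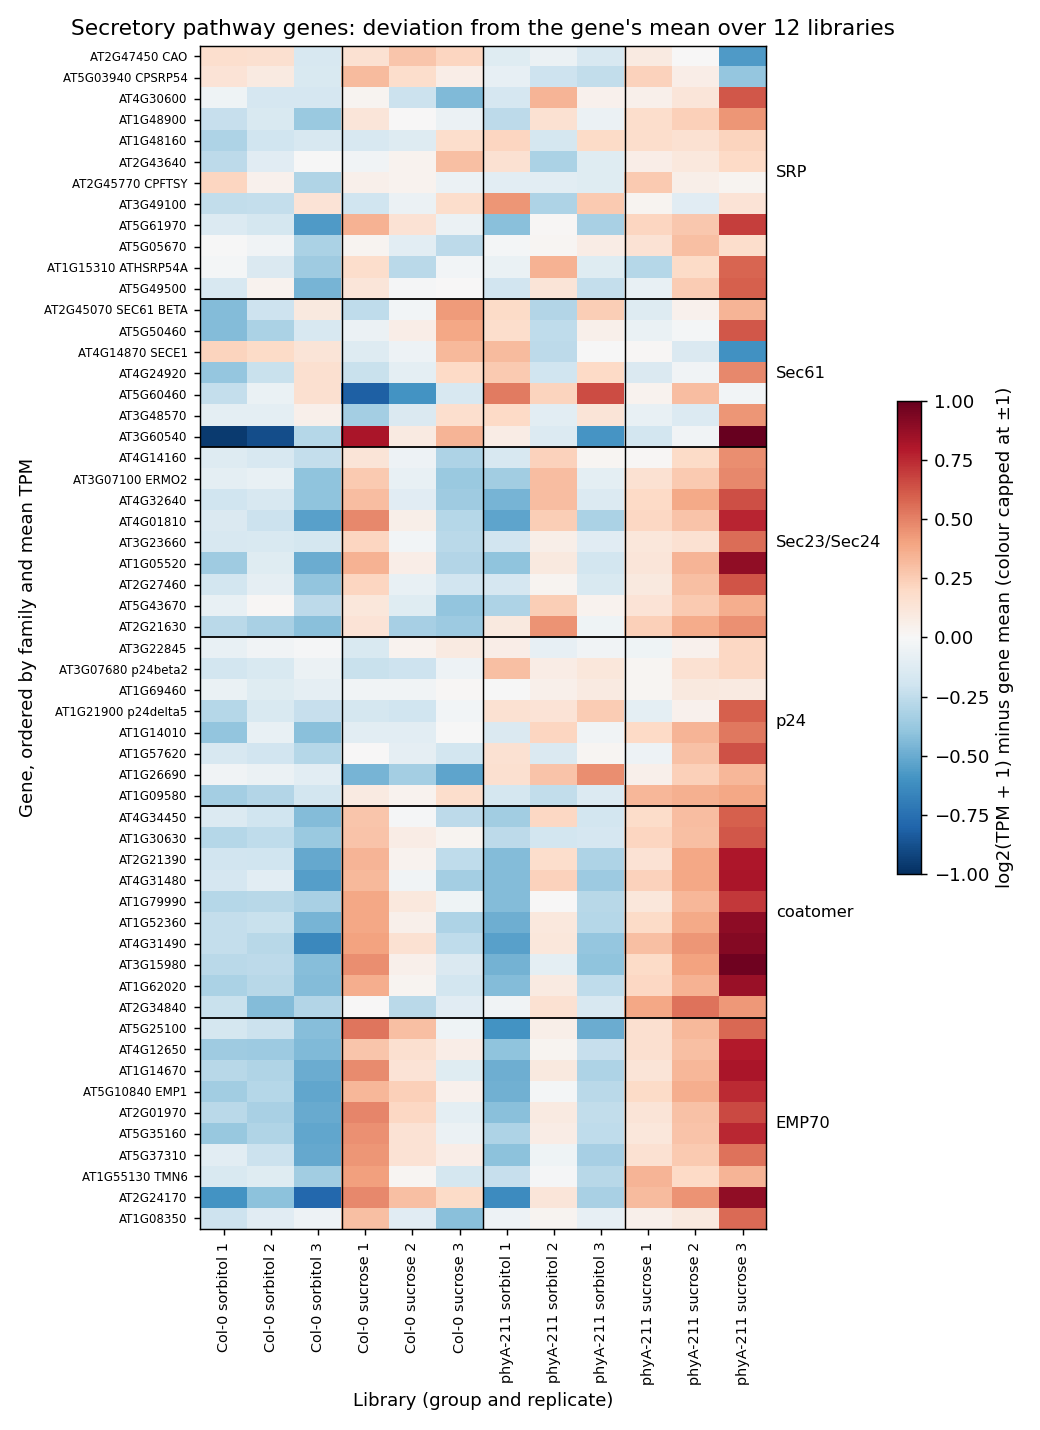
Deviation of each of the 56 genes from its own mean over 12 libraries, in log2(TPM + 1), with libraries in columns and genes in rows ordered by family and mean TPM; colours are capped at 1 in either direction. The phyA-211 sucrose replicate 3 column is the reddest, with 52 of 56 genes above their means, and the plastid genes CAO, CPSRP54 and SECE1 run the other way there.

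Of 12 genes for the signal recognition particle and its receptors, limma called none in Col-0 (2 at an unadjusted p under 0.05; 12.1% of all genes rose) and 1 rose in phyA-211 (16.9% of all genes). At this list size those shares correspond to few genes, so the counts do not set the family apart. It had median log2 changes of 0.16 and 0.19. The gene called was AT5G61970, annotated as SRP-related. It stood at 34.97, 34.1 and 25.8 TPM in Col-0 under sorbitol and 49.5, 42.7 and 36.95 TPM under sucrose. The phyA-211 libraries held 28.7, 39.1 and 30.7 TPM under sorbitol and 44.9, 46.9 and 62.9 TPM under sucrose. The sucrose libraries were above the sorbitol libraries in both genotypes, yet the log2 change of 0.44 ± 0.18 (SE) in Col-0 did not pass the test (limma adjusted p = 0.1), and that of 0.63 ± 0.18 in phyA-211 did (adjusted p = 0.0227). The phyA-211 call was lost without sucrose replicate 3 (log2 change 0.48) and without sorbitol replicate 1 or 3.

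AT1G48900, an SRP54 gene encoding the subunit that binds signal peptides, stood at 44.9, 47.5 and 40.6 TPM in Col-0 under sorbitol and 57.8, 53.2 and 50.8 TPM under sucrose. The phyA-211 values were 43.95, 59.04 and 50.7 TPM under sorbitol and 59.9, 62.8 and 72.2 TPM under sucrose. Its sugar groups did not overlap in either genotype, but the log2 changes of 0.28 and 0.34 missed the threshold (adjusted p = 0.138 and 0.0625). It supplied most of the SRP54 transcript outside the plastid: the 3 SRP54 genes summed to 53.7 ± 4.85 TPM (SD, n = 3) in Col-0 with sorbitol, of which ATHSRP54A and AT5G49500 gave only 5.67 ± 0.769 and 3.68 ± 0.798 TPM. SRP19 (AT1G48160), the 2 SRP9/SRP14 genes and the SRP receptor alpha gene AT4G30600 were not called with sucrose in either genotype.

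The most abundant gene under the SRP descriptions belongs to another organelle. CAO, the chloroplast SRP component that guides antenna proteins to the thylakoid, stood at 233, 232 and 186 TPM in Col-0 under sorbitol and 231, 253 and 241 TPM under sucrose. In phyA-211 it was at 191, 199.9 and 186 TPM under sorbitol and 221, 209 and 140.3 TPM under sucrose, lowest in sucrose replicate 3. With CPSRP54, its GTPase partner CPFTSY and SECE1 of the thylakoid translocase, it forms a group of 4 plastid genes that the descriptions bring in. None of the 4 was called in any comparison. At an unadjusted p under 0.05 were none in the sucrose comparisons and 1 between genotypes with sucrose (4760 of all 19862 genes). Their summed level was 489.9, 448 and 325 TPM in the phyA-211 sucrose libraries. Without the 4, the median change of the other 52 genes was 0.23 in Col-0 and 0.40 in phyA-211.

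Sec61 genes had changes on both sides of 0, and limma called none of the 7 with sucrose (12.1% and 16.9% of all genes rose). Of the 7, 3 had an unadjusted p under 0.05 in Col-0 and none in phyA-211, against 7020 and 8067 of all 19862 genes. Their summed level was 433 ± 51.3 TPM (SD, n = 3) with sorbitol and 481 ± 96.1 TPM with sucrose in Col-0. In phyA-211 the sums were 493 ± 82.7 and 494 ± 72.96 TPM. The family median in phyA-211 was 0.01 and turned to -0.14 under median-ratio rescaling, -0.03 under quantile normalisation and -0.09 without sucrose replicate 3. Genes with SecY descriptions, among them those for the Sec61 alpha channel, and the SRP72 genes fall outside the rule and were read after values had been seen. The 6 tested include the plastid SecY genes SCY1 and SCY2. Of the 6, limma called none in Col-0 (12.1% of all genes rose), with 3 at an unadjusted p under 0.05. In phyA-211 4 rose (16.9% of all genes), SCY2 being 1 of them. Without sucrose replicate 3 that count was 1 (9.64% of all genes), and without sorbitol replicate 1 or 3 it was 0 (8.96% and 6.73%).

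The 3 Sec61 beta genes, for a small subunit beside the channel, differed in level and in the sign of their changes. SEC61 BETA (AT2G45070), the most abundant of the family, stood at 133, 155 and 192 TPM in Col-0 under sorbitol and 150.0, 176 and 242 TPM under sucrose. Its phyA-211 values were 205, 146 and 213 TPM under sorbitol and 164, 185 and 228 TPM under sucrose, and the groups overlapped in both genotypes. AT3G60540 was scarce, at 1.41, 1.52 and 2.84 TPM in Col-0 under sorbitol and 7.24, 3.98 and 4.92 TPM under sucrose. All 3 Col-0 sucrose libraries were higher, but the log2 change of 1.13 ± 0.43 missed the threshold (adjusted p = 0.0851). Its phyA-211 libraries gave 3.93, 3.25 and 2.11 TPM under sorbitol and 3.12, 3.55 and 14.6 TPM under sucrose, where replicate 3 stood far above the other libraries.

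AT5G60460 pointed the opposite way. It stood at 21.2, 23.99 and 28.3 TPM in Col-0 under sorbitol and 13.9, 16.3 and 22.4 TPM under sucrose, and at 36.6, 29.6 and 40.1 TPM under sorbitol and 25.9, 31.4 and 24.7 TPM under sucrose in the mutant. Its log2 changes of -0.48 and -0.36 were not called (adjusted p = 0.0831 and 0.16). Every phyA-211 library was above every Col-0 library within each sugar. The genotype differences of 0.51 with sorbitol and 0.63 with sucrose did not pass the test (adjusted p = 0.218 and 0.0581).

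The Sec23/Sec24 genes of the inner COPII coat all had positive changes in phyA-211, but no single gene passed the test. Against 12.1% of all genes risen in Col-0 and 16.9% in phyA-211, limma called none of these 9. At an unadjusted p under 0.05 were none of them in Col-0 and 5 in phyA-211, against 7020 and 8067 of all 19862 genes. Their median was 0.36 in phyA-211 (0.25 without sucrose replicate 3) and 0.15 in Col-0. AT4G14160, the most abundant, was at 56.7, 55.3 and 52.4 TPM in Col-0 under sorbitol and 68, 59.9 and 49.8 TPM under sucrose. Its phyA-211 libraries held 55.4, 72.9 and 62.7 TPM under sorbitol and 62.4, 70.7 and 85.7 TPM under sucrose, and the groups overlapped. ERMO2, a SEC24 gene needed for ER shape, also overlapped between the sugars in both genotypes.

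AT1G05520 had the smallest adjusted p of the family in Col-0 and the second smallest in phyA-211. Its level was 22.7, 26.9 and 20.4 TPM in Col-0 under sorbitol and 37.5, 30.7 and 23.7 TPM under sucrose, a log2 change of 0.36 ± 0.22 (adjusted p = 0.262). The mutant libraries gave 21.9, 31.5 and 25.7 TPM under sorbitol and 31.9, 37.3 and 54.9 TPM under sucrose, a change of 0.61 ± 0.22 (adjusted p = 0.0574). The phyA-211 sugar groups did not overlap, while those of Col-0 did. AT4G01810 was at 29.4, 27.8 and 22.03 TPM in Col-0 under sorbitol and 45.7, 33.99 and 26.5 TPM under sucrose, with a log2 change of 0.39 and adjusted p = 0.273. Its phyA-211 values were 22.2, 38.8 and 26.01 TPM under sorbitol and 37.7, 39.9 and 55.8 TPM under sucrose, with overlap between sugars. AT2G27460 was at 14.9, 17.2 and 15.1 TPM in phyA-211 under sorbitol and 18.2, 21.1 and 26.6 TPM under sucrose, without overlap (log2 change 0.44, adjusted p = 0.0555). In Col-0 it was at 14.8, 15.8 and 12.6 TPM under sorbitol and 19.8, 16.04 and 14.7 TPM under sucrose.

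Among the 8 p24 cargo receptors, 1 gene rose in both genotypes and 1 fell in Col-0. The share risen was 12.5% in each genotype, against 12.1% of all genes in Col-0 and 16.9% in phyA-211. In Col-0 9.95% of all genes fell. At this list size the counts do not set the p24 family apart. The family summed to 337 ± 5.46 TPM (SD, n = 3) in Col-0 with sorbitol and 350.3 ± 13.7 TPM with sucrose. The mutant sums were 390.4 ± 7.81 and 418 ± 43.9 TPM. Median log2 changes with sucrose were 0.08 in Col-0 and 0.06 in phyA-211, and became -0.02 and -0.09 under median-ratio rescaling. The most abundant p24 gene, AT3G22845, held 78.1, 80.2 and 81.9 TPM in Col-0 under sorbitol and 74, 84.3 and 87.5 TPM under sucrose. It held 86.1, 77.6 and 80.4 TPM under sorbitol and 80.01, 85.04 and 95.4 TPM under sucrose in the mutant, with overlap throughout.

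AT1G09580 had the smallest adjusted p of the 56 genes in phyA-211. Its level was 10.8, 11.1 and 12.1 TPM in Col-0 under sorbitol and 14.8, 14.3 and 15.8 TPM under sucrose. Its phyA-211 levels were 12.2, 11.5 and 12.6 TPM under sorbitol and 17.8, 18.1 and 18.5 TPM under sucrose. The sugar groups were separate in each genotype, with log2 changes of 0.38 ± 0.10 (adjusted p = 0.02) and 0.55 ± 0.10 (adjusted p = 0.00448). The phyA-211 call held when any library was left out and under all other settings tried, whereas the Col-0 call was lost under median-ratio rescaling, quantile normalisation, the fit of those groups alone and 3 of the 12 omissions. AT1G14010 stood at 32.7, 42.3 and 35.4 TPM in phyA-211 under sorbitol and 41.8, 46.2 and 52.8 TPM under sucrose, with overlap and adjusted p = 0.0784. Its Col-0 values were 27.3, 34.5 and 26.8 TPM under sorbitol and 33.6, 33.6 and 36.1 TPM under sucrose.

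AT1G26690 was the only gene of the 56 that fell with sucrose in Col-0. It measured 17.7, 17.4 and 16.9 TPM under sorbitol and 12.9, 14.1 and 12.3 TPM under sucrose, with no overlap, a log2 change of -0.38 ± 0.12 (adjusted p = 0.0375). Its phyA-211 libraries gave 20.5, 22.4 and 25.4 TPM under sorbitol and 18.8, 21.7 and 23.1 TPM under sucrose, which overlapped (change -0.10, adjusted p = 0.564). The phyA-211 libraries were above the Col-0 libraries under both sugars. The genotype difference with sucrose was 0.65 ± 0.12 (adjusted p = 0.00621) and passed in every alternative setting and omission tried. With sorbitol it was 0.37 ± 0.12 and did not pass (adjusted p = 0.162). The fall in Col-0 was lost in 7 of the 12 omissions.

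The coatomer genes found by the rule encode alpha, beta, beta prime, gamma and epsilon subunits, and nearly all of them rose with sucrose in phyA-211. Of 10 genes, 1 rose in Col-0 (10%, against 12.1% of all genes) and 9 rose in phyA-211 (90%, against 16.9%). The median log2 changes were 0.38 and 0.65, and all 10 changes were positive in each genotype. Summed over the family, Col-0 held 627, 626 and 533 TPM with sorbitol and 931, 754 and 644 TPM with sucrose. The phyA-211 libraries held 554, 779 and 606 TPM with sorbitol and 841, 944 and 1253 TPM with sucrose. The sucrose sums lay above the sorbitol sums in both genotypes. Ratios of the group means were 1.30 and 1.57. Without phyA-211 sucrose replicate 3, the library with the low leaf markers, 3 of the 10 rose (9.64% of all genes) and the median was 0.48. Without sorbitol replicate 3 of that genotype 1 rose (6.73% of all genes, median 0.60). Without its sorbitol replicate 2 all 10 did (20.9% of all genes, median 0.82).

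The epsilon subunit gene AT1G30630 was the coatomer gene called in both genotypes. It stood at 91.5, 93.2 and 85.8 TPM in Col-0 under sorbitol and 136, 117 and 114 TPM under sucrose. The mutant libraries gave 93.1, 98.3 and 99.2 TPM under sorbitol and 129.6, 137 and 172 TPM under sucrose. No sucrose library came below a sorbitol library in either genotype, and the log2 changes were 0.43 ± 0.12 (adjusted p = 0.0242) and 0.58 ± 0.12 (adjusted p = 0.00702). In phyA-211 the call held under every setting and omission tried, whereas the Col-0 call was lost in 5 of the 12 omissions, each of a Col-0 library. The second epsilon gene, AT2G34840, was far less abundant, at 8.46, 7.14 and 7.97 TPM in Col-0 under sorbitol and 10.1, 8.14 and 9.17 TPM under sucrose. It was at 9.75, 11.3 and 8.86 TPM in phyA-211 under sorbitol and 13.4, 15.03 and 13.9 TPM under sucrose. The phyA-211 libraries were higher than Col-0 under both sugars. The sucrose change in phyA-211 was 0.47 ± 0.13 (adjusted p = 0.0205), and the genotype difference with sucrose was 0.58 ± 0.13 (adjusted p = 0.0188). The first was lost without phyA-211 sorbitol replicate 1 or 3 or sucrose replicate 2, and the second without Col-0 sucrose replicate 2 or 3 or phyA-211 sucrose replicate 2. Near-identical copies, such as the neighbouring beta genes AT4G31480 and AT4G31490, may share reads, so the split between them is uncertain, and whether counting used strand is not stated.

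Gene AT3G15980 for the beta prime subunit, part of the outer cage layer, had the largest coatomer change in phyA-211. Its level was 44.8, 45 and 39.9 TPM in Col-0 under sorbitol and 75.03, 55.99 and 48.8 TPM under sucrose. Levels in phyA-211 were 38.7, 50.5 and 40.7 TPM under sorbitol, against 61.8, 71.7 and 107 TPM under sucrose. The sugar groups were separate in both genotypes, with log2 changes of 0.44 ± 0.20 (adjusted p = 0.146) and 0.85 ± 0.20 (adjusted p = 0.0127). The phyA-211 call was lost only without sorbitol replicate 3, among the omissions and settings tried, and the change was 0.62 without sucrose replicate 3. AT1G79990, annotated as subunit beta-2, stood at 58.8, 59.4 and 57.2 TPM in Col-0 under sorbitol and 94.4, 77.7 and 69.9 TPM under sucrose. Its phyA-211 libraries held 52.98, 72.2 and 59.3 TPM under sorbitol and 78.03, 91.02 and 119 TPM under sucrose. They too did not overlap between sugars, and the change of 0.62 was called in phyA-211 (adjusted p = 0.0189) while 0.45 in Col-0 was not (adjusted p = 0.0767). Without sucrose replicate 3 the phyA-211 change was 0.46 and was not called.

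The coatomer gene with the highest level, AT4G34450 for the gamma-2 subunit, was the only coatomer gene not called in phyA-211. Its level was 122, 117 and 99.5 TPM in Col-0 under sorbitol and 163, 134 and 112 TPM under sucrose. The phyA-211 libraries held 106, 156 and 118 TPM under sorbitol and 153, 167 and 204 TPM under sucrose. The groups overlapped in both genotypes, and the phyA-211 change of 0.47 ± 0.18 had adjusted p = 0.0713. The remaining alpha, beta and beta prime genes had phyA-211 changes of 0.64 to 0.82, or 0.45 to 0.64 without sucrose replicate 3, when none of them was called. By subunit, the 2 alpha genes summed to 134 ± 30.1 TPM (SD, n = 3) in phyA-211 with sorbitol and 212 ± 51.9 TPM with sucrose. The 2 beta genes summed to 119 ± 31.4 and 199 ± 45.03 TPM, and the 2 epsilon genes to 107 ± 3.51 and 160.4 ± 22.5 TPM. As shares of the coatomer sum, gamma-2 gave 16.3% to 20.0% over the 12 libraries, and AT1G30630 gave 12.6% to 17.7%.

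**Figure D3:**
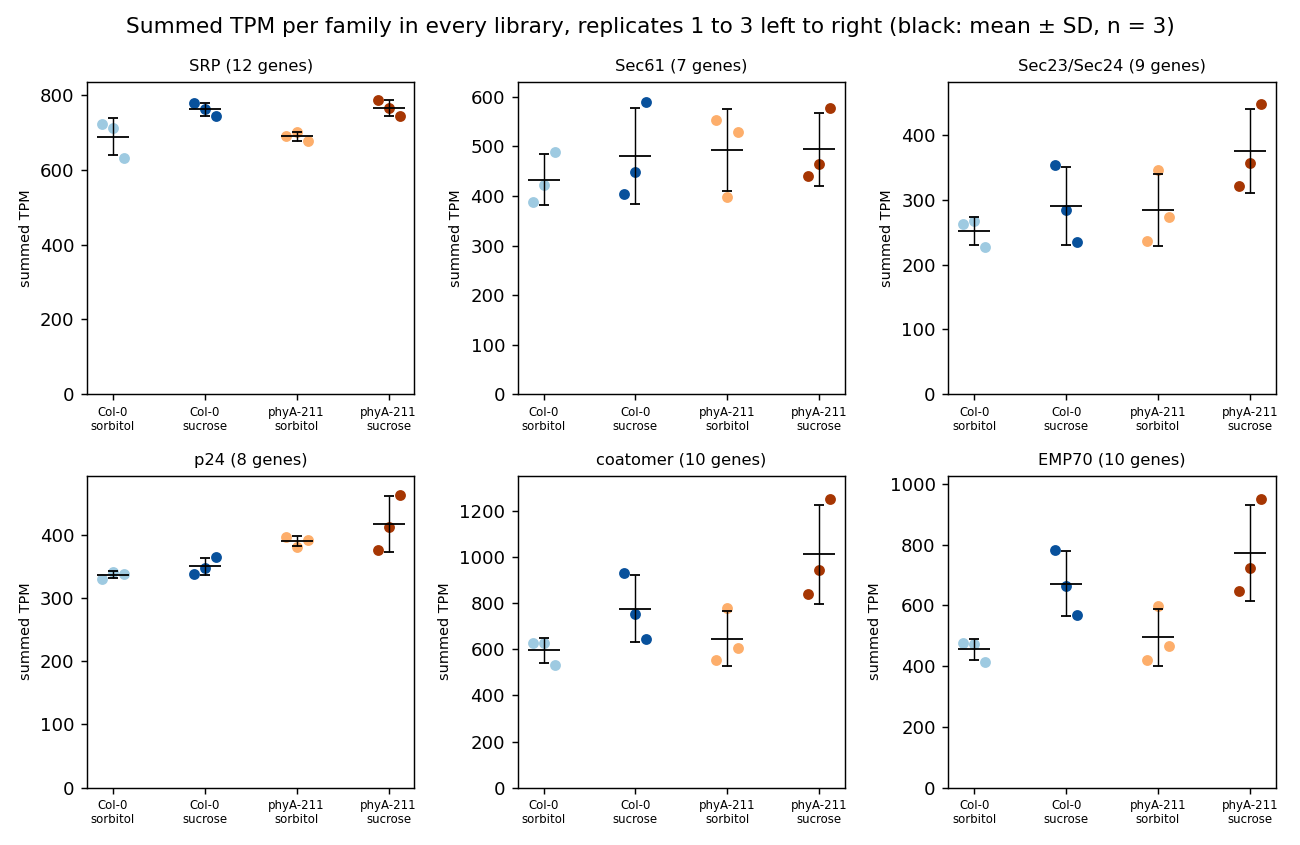
Summed TPM of each family in every library (points, replicates 1 to 3 from left to right), with the mean and SD of 3 libraries in black and an axis from 0. Coatomer sums run from 533 to 1253 TPM and EMP70 sums from 415 to 951 TPM, with sucrose above sorbitol in each genotype, whereas Sec61 sums overlap.

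The EMP70 family held most of the genes that rose in Col-0 and as many as coatomer in phyA-211. Of 10 genes, 6 rose in Col-0 (60%, against 12.1% of all genes) and 9 in phyA-211 (90%, against 16.9%), with medians of 0.54 and 0.60. In Col-0 8 of the 10 had every sucrose library above every sorbitol library (25% of all genes did), and in phyA-211 all 10 did (25.9% of all genes). The family summed to 476, 474 and 415 TPM in Col-0 under sorbitol and 781, 665 and 569 TPM under sucrose. The mutant sums were 420.0, 599 and 466 TPM with sorbitol and 647, 722 and 951 TPM with sucrose. Neither pair of groups overlapped, and the ratios of means were 1.48 and 1.56. Leaving out single libraries kept the median between 0.41 and 0.67 in Col-0 and between 0.45 and 0.72 in phyA-211, but the count of genes that rose ran from 1 to 7 and from 1 to 9. Without phyA-211 sucrose replicate 3 it was 2 in phyA-211 (9.64% of all genes).

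AT2G24170, a low-abundance family member, had the largest EMP70 change. It stood at 3.93, 4.62 and 3.34 TPM in Col-0 under sorbitol and 9.45, 8.23 and 7.54 TPM under sucrose. Its phyA-211 levels were 3.84, 7.11 and 4.96 TPM under sorbitol and 8.32, 9.19 and 12.8 TPM under sucrose. The groups were separate, with log2 changes of 0.93 ± 0.21 (adjusted p = 0.00957) and 0.83 ± 0.21 (adjusted p = 0.0148). Its Col-0 call held under every setting and omission tried, and its phyA-211 call was lost without sucrose replicate 3 (0.66) or sorbitol replicate 1 or 3. EMP1 (AT5G10840) stood at 76.6, 80.1 and 67.98 TPM in Col-0 under sorbitol and 123, 115 and 101 TPM under sucrose. The mutant libraries gave 69.9, 96.6 and 81.1 TPM under sorbitol and 111, 126 and 164 TPM under sucrose. It was separated by sugar in both, with log2 changes of 0.59 ± 0.16 (adjusted p = 0.0225) and 0.68 ± 0.16 (adjusted p = 0.0113). The phyA-211 call held in every omission, and the Col-0 call was lost in 4 of 12.

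The most abundant EMP70 gene, AT5G25100, stood at 104, 101 and 87.4 TPM in Col-0 under sorbitol and 171, 145 and 114 TPM under sucrose. Levels in phyA-211 were 77.4, 123 and 83.2 TPM under sorbitol, against 132, 147 and 175 TPM under sucrose. Although every sucrose library was higher in both genotypes, only the phyA-211 change of 0.70 ± 0.19 was called (adjusted p = 0.0216), since 0.53 ± 0.19 in Col-0 had adjusted p = 0.0683. Without sucrose replicate 3 the phyA-211 change was 0.59 and was not called. AT4G12650, AT2G01970, AT5G35160 and AT5G37310 rose in both genotypes, by 0.49 to 0.58 in Col-0 and 0.55 to 0.62 in phyA-211. Their Col-0 calls were lost in 5, 7, 7 and 6 of the 12 omissions, in that order. Only AT4G12650 of them kept its phyA-211 call without sucrose replicate 3. AT1G14670 (0.66) and TMN6 (0.47) rose in phyA-211 only by the threshold, with Col-0 changes of 0.52 and 0.29 that were not called. Both phyA-211 calls were lost without sucrose replicate 3. AT1G08350 was called in neither genotype, at 0.05 in Col-0 and 0.28 in phyA-211.

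**Figure D4:**
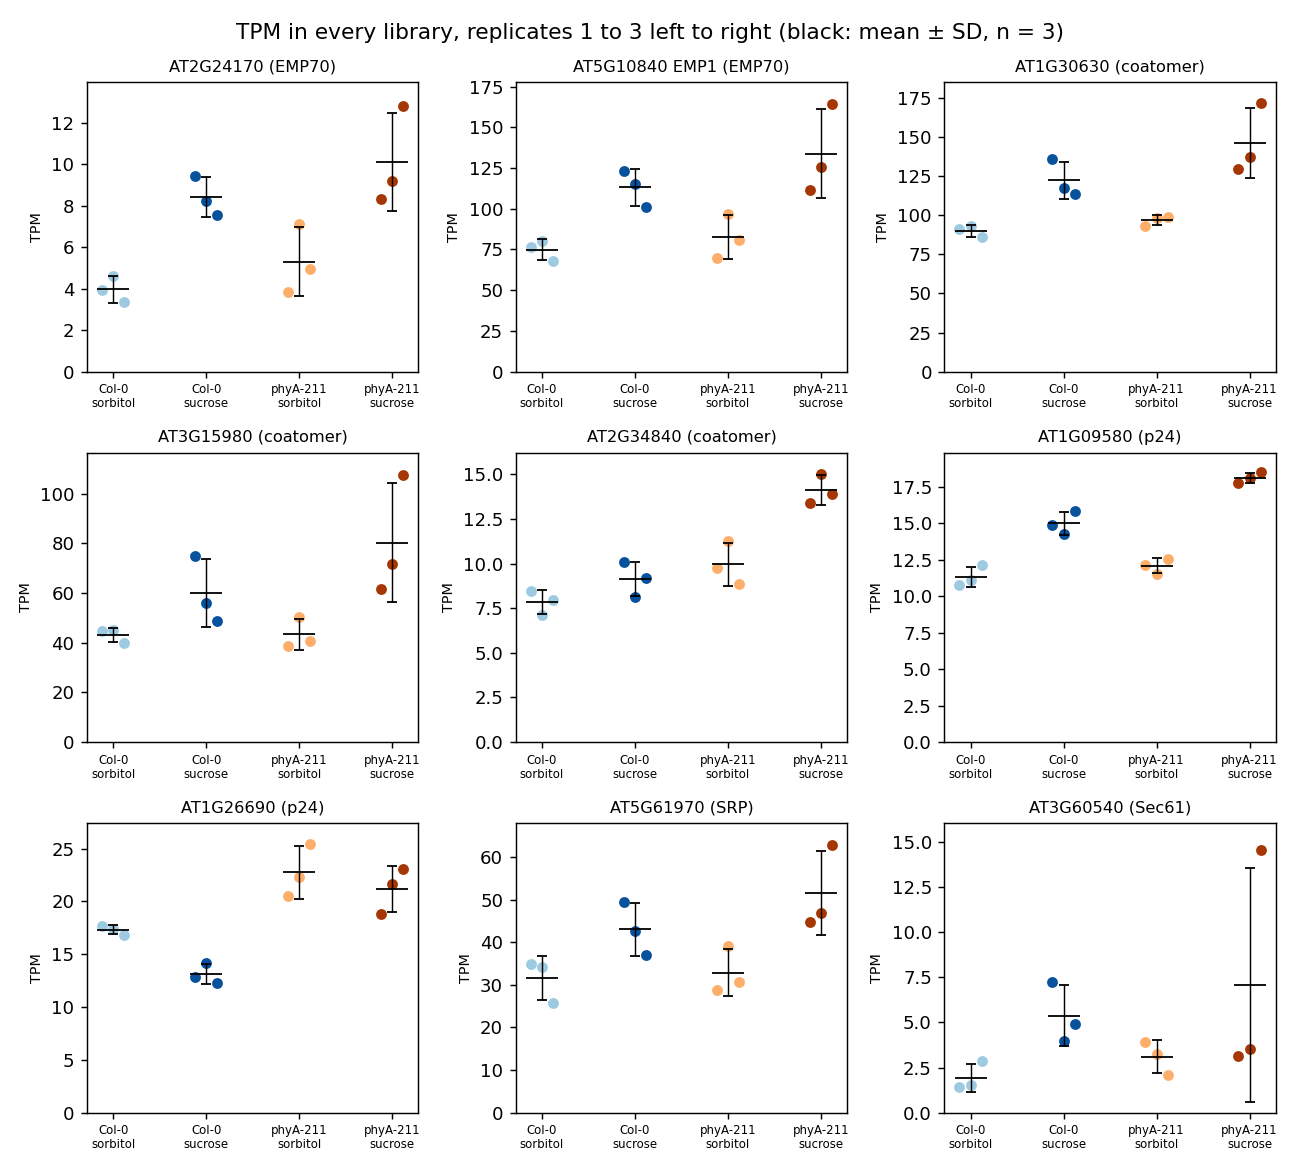
TPM of 9 genes in every library (points, replicates 1 to 3 from left to right), with the mean and SD of 3 libraries in black and each axis starting at 0. AT2G24170, EMP1 and AT1G30630 separate by sugar in both genotypes, AT1G26690 is lowest in Col-0 with sucrose, and the phyA-211 mean of AT3G60540 includes replicate 3 at 14.6 TPM.

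Between the genotypes few differences passed. With sorbitol none of the 56 genes was called by limma, where 2.15% of all genes were. At an unadjusted p under 0.05 were 8 of the 56, and 2803 of all 19862 genes. With sucrose the p24 gene AT1G26690 and the epsilon gene AT2G34840 were called, both higher in phyA-211 (3.57%, against 4.15% of all genes). The median difference was 0.14 with sorbitol and 0.26 with sucrose, next to all-gene medians of 0.09 and 0.12. Without phyA-211 sucrose replicate 3 the median with sucrose was 0.15 (all genes 0.07). Of the 56, 50 and 53 had a positive difference, which became 44 and 43 after median-ratio rescaling. Before rescaling, 13109 and 13121 of all 19862 genes had a positive difference. The 3 negative ones with sucrose were the plastid genes CAO, CPSRP54 and SECE1, at -0.37, -0.22 and -0.30, none of them called.

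Whether sucrose acted differently in the genotypes was tested by the interaction term, which is the phyA-211 change minus the Col-0 change. No gene of the 56 was called (limma, lowest adjusted p = 0.999), and 2 of the 19862 genes tested were (0.0101%). At an unadjusted p under 0.05 were none of the 56 and 792 of all genes. For the 12 genes that rose in phyA-211 and not in Col-0, the difference between genotypes was therefore not shown. The median of this term over the 56 genes was 0.13 (all genes 0.04). Without phyA-211 sucrose replicate 3 it was 0.03 (all genes 0.003). With that library included, the coatomer median was 0.29 and that of EMP70 0.09. For AT3G15980 the difference was 0.40, with a 95% interval of -0.23 to 1.04, and for AT4G31480 it was 0.41 (-0.29 to 1.11). Without sucrose replicate 3 their phyA-211 changes were 0.62 and 0.50, next to 0.44 and 0.26 in Col-0. The 2 sucrose comparisons share no libraries, but each shares a control group with a genotype comparison.

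In 3 of the 4 groups, coatomer and Sec61 sums stood at opposite ends of the same library. Among the Col-0 sorbitol libraries, replicate 3 had the lowest coatomer sum (533 TPM) and the highest Sec61 sum (489 TPM). Col-0 sucrose replicate 1 had the highest coatomer sum of its group (931 TPM) and the lowest Sec61 sum (405 TPM). The same held for phyA-211 sorbitol replicate 2, at 779 and 399 TPM. Among the phyA-211 sucrose libraries, replicate 3 was highest in both (1253 and 577 TPM). The libraries with the highest coatomer sums among Col-0 sucrose, phyA-211 sorbitol and phyA-211 sucrose libraries also had the lowest leaf marker sums of their groups (46879.5, 38413.6 and 24704.5 TPM). Col-0 sorbitol replicate 3, lowest in coatomer, had the highest (54473.8 TPM). The part of leaf marker level, or of any library property, in the sucrose differences was not tested.

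Other genes of the secretory route were read from lists by function, against 12.1% of all genes risen and 9.95% fallen in Col-0, and 16.9% and 10.5% in phyA-211. Chaperones and folding enzymes of the ER lumen were the list with the highest medians, 0.62 in Col-0 and 0.69 in phyA-211, with 6 of 22 risen in Col-0, 14 of 22 in phyA-211 and none fallen. BIP2, an HSP70 chaperone of the lumen, stood at 109.8, 118 and 82.4 TPM in Col-0 under sorbitol and 265, 236 and 208 TPM under sucrose. The phyA-211 libraries held 88.1, 167 and 101 TPM under sorbitol and 199, 229 and 570.4 TPM under sucrose. The log2 changes were 1.19 ± 0.35 (adjusted p = 0.0304) and 1.37 ± 0.35 (adjusted p = 0.0159), and 0.89 in phyA-211 without sucrose replicate 3, which was the highest library. The calreticulin gene CRT1a rose by 0.68 and 0.73, and the disulfide isomerase gene PDIL1-2 by 0.97 and 0.94. Without sucrose replicate 3 their phyA-211 changes were 0.53, still called, and 0.56, no longer called. Without phyA-211 sucrose replicate 3, 3 of the 22 rose in that genotype (median 0.43, 9.64% of all genes). Without sorbitol replicate 1 or 3 it was 1 and 0 (8.96% and 6.73% of all genes). Leaving out single Col-0 libraries left 0 to 2 risen in Col-0 (5.75% to 10.9% of all genes). Fits of only the groups compared gave 15 risen in Col-0 (13.5% of all genes) and 0 in phyA-211 (8.16%). Among 5 regulators of the unfolded protein response none was called risen. BZIP60, however, stood at 104.7 TPM in phyA-211 sucrose replicate 3, against 25.1 to 35.8 TPM in the other libraries. IRE1A, an ER stress sensor, fell in Col-0 by 0.59 on the log2 scale (limma adjusted p = 0.0161). That call was lost without Col-0 sorbitol replicate 3 or sucrose replicate 2 or 3. With sucrose, 1 of the 5 regulators was called higher in phyA-211 than in Col-0, as were 4.15% of all genes.

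Oligosaccharyltransferase subunits, which add N-glycans to entering proteins, had medians of 0.47 and 0.60. Of 9, STT3A rose in Col-0 (0.58, limma adjusted p = 0.041) and 5 rose in phyA-211, none of them without sucrose replicate 3 or sorbitol replicate 1 or 3. In those 3 omissions, in that order, 9.64%, 8.96% and 6.73% of all genes rose in phyA-211. The shares fallen were 7.62%, 8.23% and 4.93%. They are the background for the omission counts below. The Col-0 call of STT3A was lost in 7 of the 12 omissions, without the filter and with the replicate block. Of 8 genes for signal peptidase, Sec62 and Sec63, limma called none in Col-0 (1 at an unadjusted p under 0.05) and 4 rose in phyA-211, none without sucrose replicate 3 or sorbitol replicate 3 and 1 without sorbitol replicate 1. The small GTPases were split. SAR1B, which starts COPII assembly, rose by 0.58 in Col-0 and 0.63 in phyA-211 (adjusted p = 0.041 and 0.0262), while the related SAR2 fell by 0.34 and 0.35 on the log2 scale (adjusted p = 0.041 and 0.0317). The Col-0 call of SAR1B was lost in 8 of the 12 omissions, without the filter and with the replicate block, and its phyA-211 change was 0.36, still called, without sucrose replicate 3. The SAR2 calls were lost in 7 omissions in Col-0 and in 5 in phyA-211, sucrose replicate 3 among them. In all, of 8 other COPII genes 1 rose and 1 fell in Col-0, and 2 rose and 1 fell in phyA-211 (1 and 0 without sucrose replicate 3, and none without sorbitol replicate 1 or 3).

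ARF GTPases recruit coatomer to membranes. Of 7 ARF and exchange factor genes, 1 rose and 1 fell in Col-0, and 4 rose and 1 fell in phyA-211. Without sucrose replicate 3 the phyA-211 counts were 2 and 1 (9.64% and 7.62% of all genes). They were 1 and 1 without sorbitol replicate 3 (6.73% and 4.93%) or under median-ratio rescaling (14.1% and 15%). The gene that fell was ARFA1E, the most abundant, at 977, 899 and 1035 TPM in Col-0 under sorbitol and 493, 481 and 505 TPM under sucrose. Its phyA-211 levels were 961, 899 and 1006 TPM under sorbitol and 603, 626 and 497 TPM under sucrose. Its sugar groups did not overlap in either genotype, with log2 changes of -0.97 ± 0.13 (adjusted p = 0.00109) and -0.74 ± 0.13 (adjusted p = 0.00366). ARF1 went the other way in phyA-211 (0.76, adjusted p = 0.0107), as did ARFA1F in both genotypes (0.42 and 0.53). Without sucrose replicate 3 these phyA-211 changes were 0.51 and 0.35, both called. Both ARFA1E calls held under every setting and omission tried, while the Col-0 call of ARFA1F was lost in 9 of the 12 omissions and both of its calls under median-ratio rescaling.

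Of 13 ER-Golgi SNARE genes, which drive membrane fusion, none rose and 3 fell in Col-0 (median -0.23; 9.95% of all genes fell), and 1 rose and 2 fell in phyA-211 (median -0.11; 10.5% of all genes fell). The phyA-211 count of fallen genes is near that background. SYP32, the gene that rose there, had a log2 change of 0.33 without sucrose replicate 3 and was no longer called. MEMB11, a Golgi SNARE, stood at 36.4, 44.2 and 44.5 TPM in Col-0 under sorbitol and 15.1, 16.8 and 20.02 TPM under sucrose. The mutant libraries gave 49.8, 39.2 and 54.1 TPM under sorbitol and 26.8, 29.4 and 22.6 TPM under sucrose. Sucrose libraries were lower in both genotypes, with log2 changes of -1.23 ± 0.16 (adjusted p = 0.00101) and -0.83 ± 0.16 (adjusted p = 0.0049). GOS11 changed by -0.78 and -0.43, both called, and AtSec20 fell in Col-0 alone by the threshold (-0.54, adjusted p = 0.00519). With sucrose, 5 of the 13 were called higher in phyA-211 than in Col-0, as were 4.15% of all genes. Among 7 vacuolar sorting and ER retention receptors, ERD2B, which returns ER residents, rose in both genotypes (0.28 and 0.35), and neither call held under median-ratio rescaling. Without sucrose replicate 3 its phyA-211 change was 0.33, still called. Of 5 clathrin chain genes, AT3G51890 fell in both (-1.19 and -0.86) and AT2G20760 rose in phyA-211 (0.72). Without sucrose replicate 3 the change of AT2G20760 was 0.54, still called.

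**Figure D5:**
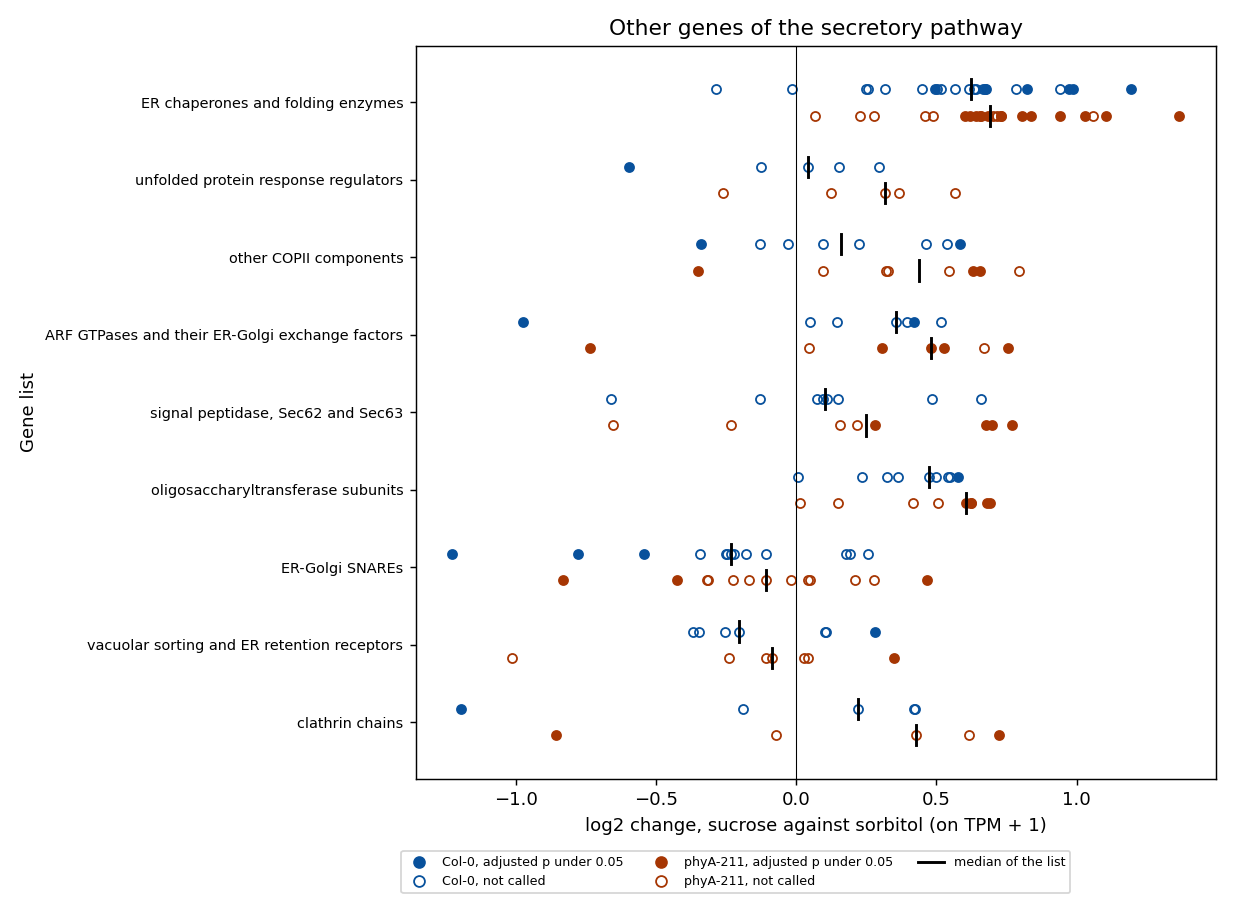
Log2 change with sucrose (on TPM + 1) of every tested gene in 9 lists of other secretory pathway genes, for Col-0 (blue) and phyA-211 (brown); filled points passed an adjusted p of 0.05 and black bars are list medians. Medians are highest for ER chaperones and folding enzymes, at 0.62 and 0.69, and below 0 in both genotypes for the ER-Golgi SNAREs and the sorting receptors.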

How the data were processed

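RNA-seq of 12 libraries in 4 groups of 3 was read from the TPM values in the authors' deposited table. The submitters' processing notes name fastp, cutadapt, HISAT2, DESeq2 and TAIR10; the program that made the TPM is not given in the sources used here. TPM holds shares of a library, so depth is unknown and a rise in a few abundant genes lowers the rest. Here log2(TPM + 1) was fitted in limma 3.58.1 (R 4.3.3; 8 residual and 3.68 prior degrees of freedom) over 19862 genes with at least 1 TPM in at least 3 libraries, with Benjamini-Hochberg adjustment over all of them. Genes in full are, per family, the 2 with the smallest adjusted p in each sucrose comparison, the most abundant, and any that fell with sucrose or were called between genotypes; for other lists, up to 3 per sucrose comparison. The code was tested on simulated data. Members and lists were chosen with earlier results of these data known, and the SecY and SRP72 genes after their values were seen. From the lists, 7 loci not annotated for the role were left out. All 61 loci matched RefSeq locus tags. Alternatives changed the pseudocount, filter, scaling, block, weights, samples fitted and each library in turn.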

Additional observations from a re-analysis of the deposited data

How the results depend on the processing

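Counts of the 56 genes were compared with 8 for risen and 1 for fallen in Col-0 with sucrose, 20 risen and 0 fallen in phyA-211, 0 between genotypes with sorbitol, 2 with sucrose and 0 for the interaction. Pseudocounts of 0.1 and 5, median-ratio rescaling and quantile normalisation kept every count within 1.5 times. Without a filter 5 rose in Col-0 (8.35% of all genes). Deviations of same-numbered replicates correlated at -0.13 to 0.31, and those of other pairs at -0.29 to 0.21. In each comparison 0 to 3 of 6 libraries correlated best with their own number. With 3 libraries a group this cannot decide whether the numbers pair the samples. With the replicate block 5 rose (11% of all genes) and 0 fell (9.3%) in Col-0. A fit of only the groups compared gave 3 risen in phyA-211 (8.16% of all genes) and 1 called between genotypes with sucrose (3.29%). The interaction needs all 4 groups. Library weights gave 24 risen and 3 fallen in Col-0, 45 and 10 in phyA-211, 20 and 52 between genotypes and 32 for the interaction, where 30.9%, 28.1%, 56.7%, 34.8%, 46.8%, 89.9% and 53.5% of all genes were called, and they put weights of 44.1 to 94.4 on 3 libraries, under 1 on the others, and stopped before converging. Leaving out single libraries gave 2 to 12 risen and 0 to 1 fallen in Col-0, 3 to 26 risen and 0 fallen in phyA-211, 0 to 1 and 1 to 3 between genotypes, and 0 for the interaction. No gene called in the comparisons reported changed sign under these settings, but genes with a positive sucrose change fell from 49 to 41 of 56 in each genotype under median-ratio rescaling, the p24 median turned to -0.02 in Col-0 and -0.09 in phyA-211, and the Sec61 median in phyA-211 to -0.14. The cause was not tested. Depth is unknown, which limits statements on scarce genes such as AT3G60540.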
